A study of Mus musculus with 4 samples.

Results

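The genes described here are the matrix proteases of the mouse genome and the genes that restrain, activate or complement them. They were chosen by gene symbol among protein-coding genes of the GENCODE M21 annotation: the matrix metalloproteinases (Mmp), their tissue inhibitors (Timp), the Adamts proteases, the Adamtsl proteins, the plasminogen activators Plau and Plat with the receptor gene Plaur, Reck, Fap, and the lysyl oxidases Lox and Loxl1 to Loxl4. The rule gave 60 genes of the 43432 in the count table: 22 Mmp, 4 Timp, 19 Adamts and 5 Adamtsl genes, 5 lysyl oxidases, 3 genes of plasminogen activation, Reck and Fap. RNA was sequenced from 4 subcutaneous 9464D-GD2 tumours of female C57BL/6 mice, 2 per group. One group had been dosed with 25 µg dinutuximab, an antibody against the ganglioside GD2. The other had received the same dose together with 20 µg of sEVs (small extracellular vesicles) derived from 9464D-GD2 cells. Both groups had received 5 treatments, so every tumour had been exposed to the antibody. The tumours are called dinutuximab 3 and 4 and sEV 3 and 4, after their labels. 9464D-GD2 is a mouse neuroblastoma line that displays GD2, so each tumour mixes cells of 1 line with the stroma and blood cells of the host. In such bulk tissue, fewer cells of a type and less RNA per cell cannot be told apart.

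Matrix metalloproteinases are zinc enzymes that cut collagens, laminins and other matrix proteins. They are made as inactive precursors and are blocked by the tissue inhibitors of metalloproteinases. ADAMTS enzymes cut procollagens and large proteoglycans. Urokinase and tissue plasminogen activator turn plasminogen into plasmin, which degrades fibrin and activates several metalloproteinase precursors. Lysyl oxidases work in the other direction, cross-linking collagen and elastin. In tumours, much of this machinery is made by fibroblasts, vessel wall cells and macrophages.

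The libraries held between 24452699 and 28187573 counts. The first principal component (44.6% of variance) set sEV 3 apart, at 21.8, from the other 3 tumours at -8.01 to -5.97. Of the 60 genes, 38 had enough reads to be tested. The other 22 had at most 7 counts in any tumour. Among them 9 had 0 counts in all 4: Mmp7, Mmp20, Mmp21, Timp4, Adamts3, Adamts16, Adamts18, Adamts19 and Adamts20. A count of 0 allows up to 3 counts per library, or between 0.104 and 0.123 CPM (counts per 1000000 counts of the scaled library), counting error only. Reck, a membrane-anchored inhibitor of metalloproteinases, had 7 counts in each of the 4 tumours and was not tested.

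No gene of the 38 passed the test between the groups. With the edgeR quasi-likelihood test and Benjamini-Hochberg adjustment over all 13823 genes tested, 0 of 38 were called, the lowest adjusted p was 0.389 (Lox), and 0% of all genes tested were called. At an unadjusted p under 0.05, 1 of the 38 was higher with sEVs (Timp2) and 4 were lower (Lox, Mmp10, Mmp3 and Loxl2). That is 13.2% of the members tested, beside 5.57% of all genes tested. limma-voom also called 0 of the 38, and DESeq2 called 0 while giving no adjusted p to Adamts5, Fap, Lox, Mmp10, Mmp23 and Mmp25, whose counts are low. By sign, 26 of the 38 log2 fold changes (sEV over dinutuximab) were negative, or 68.4%, beside 49.7% of all genes tested. The median was -0.19, beside 0.0015 over all genes tested. This median was -0.01 without dinutuximab 4 and -0.25 without sEV 4. The CPM values of the groups did not overlap in 14 of the 38 (36.8%), 4 with sEVs higher and 10 lower. Over all genes tested the share was 34.6% (18.1% higher and 16.5% lower).

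**Figure D1:**
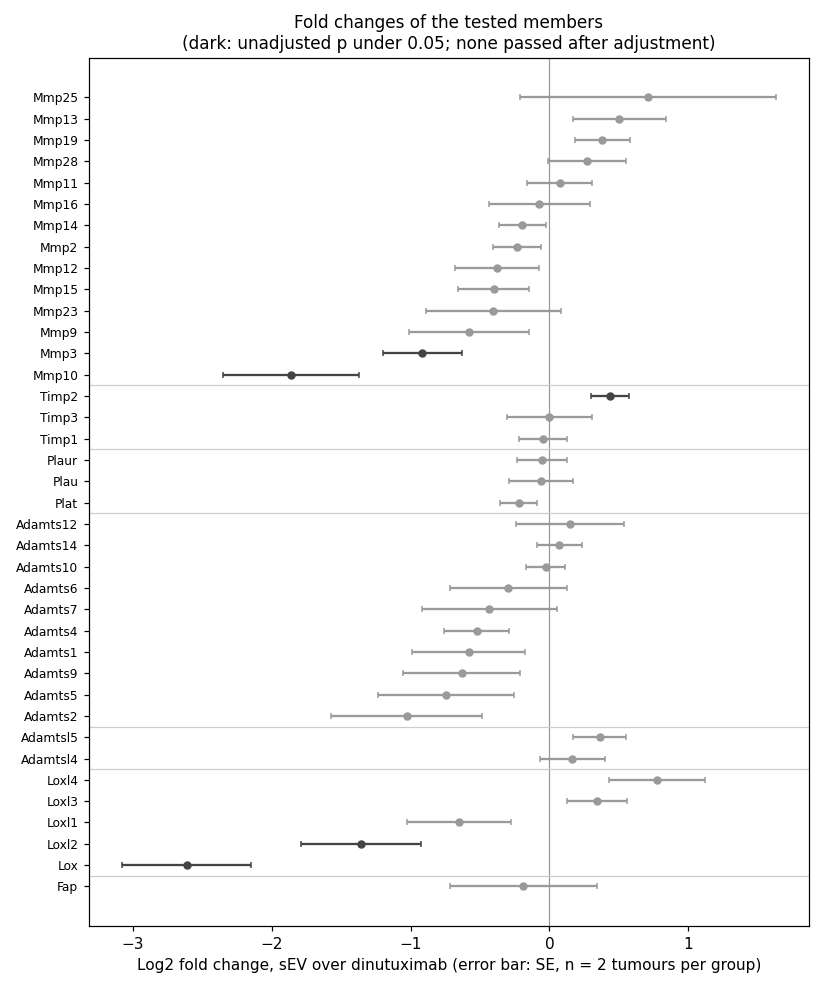
Log2 fold change of each of the 38 tested genes, sEV over dinutuximab, with its standard error (n = 2 tumours per group), ordered within each family; a value below 0 means less RNA in the sEV tumours. Dark points mark the 5 genes with an unadjusted p under 0.05, from Lox at -2.61 to Timp2 at 0.43.

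Per kilobase of exon, the inhibitors Timp2 and Timp1 stood above every protease in all 4 tumours. Averaged over the tumours, Timp2 reached 334 CPM per kb, Timp1 158 and the gelatinase gene Mmp2 113. Plat followed at 35.6, Plau at 30.5, Plaur at 29.5, Mmp14 at 21.2, Mmp9 at 14.0, Adamts14 at 12.1 and Adamtsl5 at 9.78. From Plat to Plaur the levels did not differ beyond the spread between tumours, since Plau alone ran from 22.9 to 36.8. Mmp2, Mmp14 and Mmp9 together made up between 86.9% and 89.1% of the summed Mmp level per kb of a tumour. The lowest of the tested genes were Adamts5 at 0.0548, Mmp25 at 0.0651 and Fap at 0.0789 CPM per kb.

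**Figure D2:**
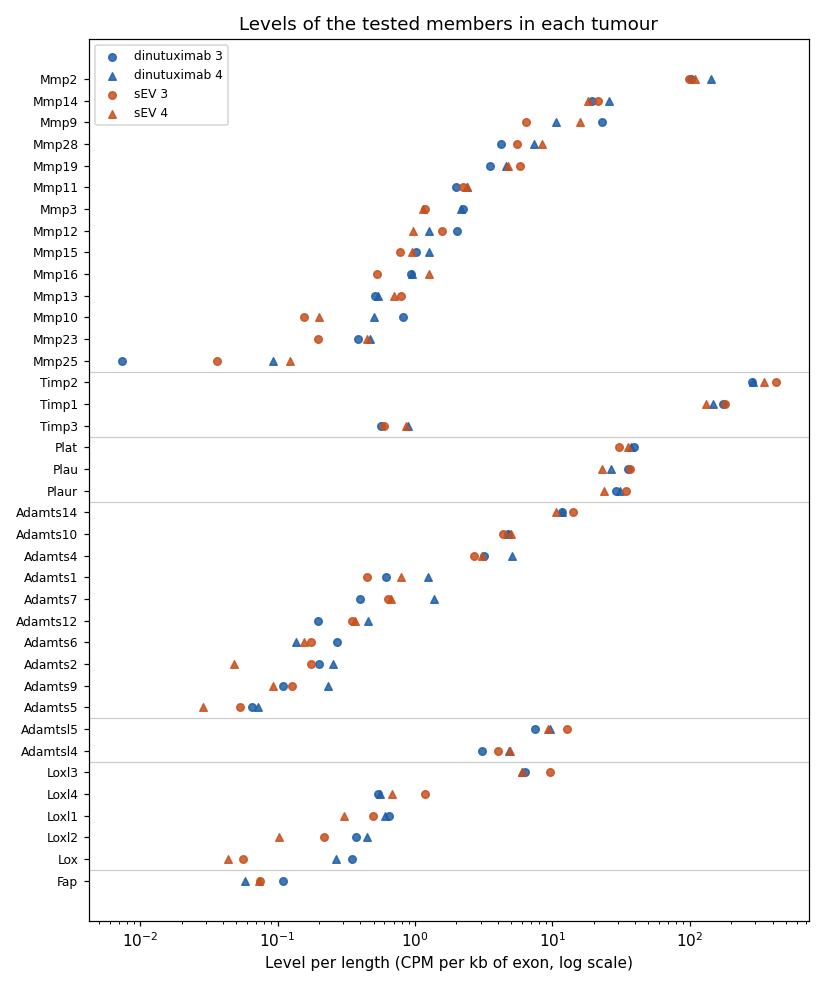
Level of each of the 38 tested genes in each tumour, in CPM per kb of exon on a log scale, grouped by family. Timp2 lies between 282 and 423 CPM per kb, above all the others, while 7 of the 10 Adamts genes and the lysyl oxidases other than Loxl3 lie under 2.

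Timp2 encodes an inhibitor that also forms a complex with the membrane protease encoded by Mmp14, which serves to activate the Mmp2 precursor. It had 1098 and 1115 CPM in dinutuximab 3 and 4 and 1647 and 1343 CPM in sEV 3 and 4. Both sEV tumours lay above both dinutuximab tumours, with sEV 3 the highest. The means were 1106 ± 12.2 and 1495 ± 215 CPM (SD, n = 2), and the log2 fold change was 0.43 ± 0.14 (SE), or 1.35-fold, which did not pass (edgeR adjusted p = 0.720, unadjusted p = 0.0120). Without sEV 3 the log2 fold change was 0.27 and without sEV 4 it was 0.58. The gene lies on the minus strand of chromosome 11 (ENSMUSG00000017466, 118301069 to 118355740, GRCm38).

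Its partners did not follow that order. Mmp2 had 344 and 480 CPM with dinutuximab and 331 and 369 CPM with added sEVs, so that dinutuximab 4 stood above the other 3 and the groups overlapped (log2 fold change -0.23 ± 0.17 SE, edgeR adjusted p = 0.909). Mmp14 had 116 and 154 CPM against 127 and 108 CPM, again with dinutuximab 4 the highest (-0.20 ± 0.17, edgeR adjusted p = 0.918). Without dinutuximab 4 both values were close to 0, at 0.02 each. Timp1, a secreted inhibitor with a broad range of targets, had 154 and 131 CPM against 159 and 117 CPM. Its groups overlapped (-0.04 ± 0.17). Timp3, the inhibitor that binds to the matrix, had between 4.60 and 7.21 CPM, with the 2 tumours numbered 4 above the 2 numbered 3 (-0.00061 ± 0.31).

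Within a tumour, the ratio of the Timp2 to the Mmp2 level per kb was 2.76 and 2.01 with dinutuximab and 4.30 and 3.15 with added sEVs. The ratio of Timp2 to Mmp14 was 14.5 and 11.1 against 19.8 and 19.0. In both ratios the 2 sEV tumours lay above the 2 dinutuximab tumours. The sum of all Timp levels over the sum of all Mmp levels was 2.81 and 2.17 against 4.15 and 2.89, where sEV 4 was close to dinutuximab 3. Timp2 took 37.0% and 36.8% of the summed level per kb of the 60 genes with dinutuximab, and 46.9% and 44.9% with added sEVs. These ratios were computed after the levels had been seen and were not tested.

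**Figure D3:**
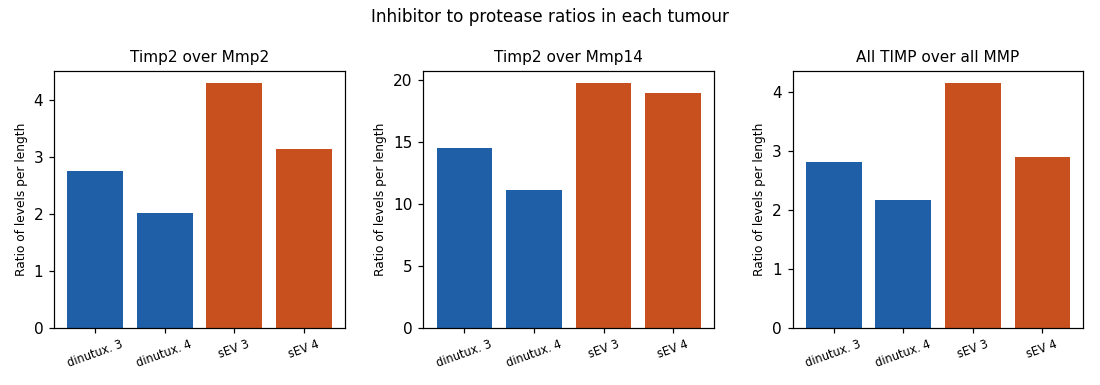
Ratio of levels per kb in each tumour, as bars from 0, for Timp2 over Mmp2, Timp2 over Mmp14 and all Timp over all Mmp genes (blue: dinutuximab, orange: sEV). The sEV bars are higher in all 3 panels, with sEV 4 at 2.89 and dinutuximab 3 at 2.81 in the last.

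Mmp3 and Mmp10 encode the stromelysins, close relatives that cut proteoglycans, laminin and fibronectin and activate other metalloproteinase precursors. Mmp3 had 4.01 and 3.89 CPM with dinutuximab and 2.14 and 2.04 CPM with added sEVs. The tumours of a group were nearly equal and the groups lay apart (means 3.95 ± 0.0879 and 2.09 ± 0.0666 CPM, SD, n = 2). The log2 fold change was -0.92 ± 0.29 (SE) and did not pass (edgeR adjusted p = 0.720, unadjusted p = 0.0116). Mmp10 had 36 and 21 counts in dinutuximab 3 and 4 and 7 and 10 counts in sEV 3 and 4, or 1.40, 0.860, 0.267 and 0.347 CPM. Both sEV tumours were again below both dinutuximab tumours. The log2 fold change was -1.86 ± 0.49 (edgeR adjusted p = 0.605, unadjusted p = 0.00467), and with no filter on low counts it was called (edgeR adjusted p = 0.0284), where 1.19% of all genes were called. The exact Poisson interval (95%) of the count was 13.0 to 32.1 in dinutuximab 4 and 4.80 to 18.4 in sEV 4, and these 2 intervals overlapped.

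Both genes belong to a run of Mmp genes on chromosome 9, from Mmp13 at 7272514 to Mmp7, which ends at 7699585 (GRCm38). Mmp3 (ENSMUSG00000043613) spans 7445822 to 7455975 and Mmp10 (ENSMUSG00000047562) 7502352 to 7510240, both on the plus strand. Between them lies Mmp1a, which GENCODE M21 lists as a polymorphic pseudogene, so that the rule leaves it out. It was looked at after its counts had been seen: 36 and 41 with dinutuximab, 3 and 12 with added sEVs (log2 fold change -2.49 ± 0.56 SE, edgeR adjusted p = 0.463). The 3 neighbours had lower values in both sEV tumours, and none passed. Others of the run did not share that pattern. Mmp13, which encodes a collagenase, had 35 and 35 counts against 55 and 54 (0.50 ± 0.33, edgeR adjusted p = 0.908). Mmp12, the elastase of macrophages, had 14.6 and 9.09 CPM against 11.3 and 6.97 CPM, with the 2 tumours numbered 3 above the 2 numbered 4 (-0.38 ± 0.30, edgeR adjusted p = 0.909). Mmp1b, whose exons overlap those of Mmp12 on the opposite strand, had at most 6 counts, Mmp8 at most 7 and Mmp27 at most 6. Mmp20 and Mmp7 had none.

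**Figure D4:**
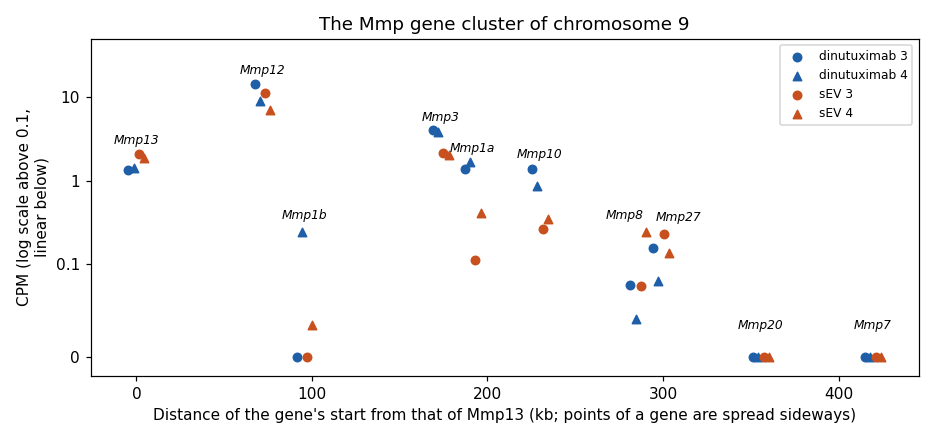
CPM in each tumour (log scale above 0.1, linear below) of the 10 genes of the chromosome 9 cluster, placed by the distance of their annotated starts in kb, with Mmp1a included. In Mmp3, Mmp1a and Mmp10 the orange sEV points lie below the blue dinutuximab points, in Mmp13 above them, and in Mmp12 the groups mix.

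Of the 5 genes of lowest p, Lox and Loxl2 had no entry in the RefSeq promoter table. The bases before the start of a gene are shown for the other 3, Mmp10, Mmp3 and Timp2. They are also shown for Mmp13, a neighbour whose positive log2 fold change did not pass. They are the 250 bases before the RefSeq start (GRCm38.p6), 5′ to 3′ on the strand of the gene: chr9:7502092-7502341 for Mmp10, chr9:7445572-7445821 for Mmp3, chr9:7272264-7272513 for Mmp13 (plus strand) and chr11:118355412-118355661 for Timp2 (minus strand). Capitals mark the AP-1 motif TGANTCA in the Mmp genes, and the GC box motif GGGCGG, searched on both strands, in Timp2.
Mmp10: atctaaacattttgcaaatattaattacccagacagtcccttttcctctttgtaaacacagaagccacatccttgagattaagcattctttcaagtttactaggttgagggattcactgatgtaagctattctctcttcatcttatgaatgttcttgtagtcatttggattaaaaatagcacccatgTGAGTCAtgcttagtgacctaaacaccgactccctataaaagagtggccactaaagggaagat
Mmp3: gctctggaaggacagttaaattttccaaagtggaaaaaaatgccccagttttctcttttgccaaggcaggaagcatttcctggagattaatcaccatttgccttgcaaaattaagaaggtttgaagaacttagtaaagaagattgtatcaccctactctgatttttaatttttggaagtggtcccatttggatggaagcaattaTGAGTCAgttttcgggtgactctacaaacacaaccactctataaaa
Mmp13: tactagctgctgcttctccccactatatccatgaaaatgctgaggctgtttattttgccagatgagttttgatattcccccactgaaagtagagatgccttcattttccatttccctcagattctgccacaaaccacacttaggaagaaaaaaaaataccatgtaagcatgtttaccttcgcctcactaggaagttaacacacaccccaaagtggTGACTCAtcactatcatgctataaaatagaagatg
Timp2: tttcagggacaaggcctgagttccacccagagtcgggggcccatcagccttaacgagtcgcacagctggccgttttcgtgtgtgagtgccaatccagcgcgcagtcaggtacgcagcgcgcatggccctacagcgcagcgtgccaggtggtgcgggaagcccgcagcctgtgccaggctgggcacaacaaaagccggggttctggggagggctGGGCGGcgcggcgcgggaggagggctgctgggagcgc

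Each of the 3 Mmp windows held 1 AP-1 motif, which reads the same on both strands. It started 63 bases before the start of Mmp10, 46 before that of Mmp3 and 35 before that of Mmp13. The letters were TGAGTCA in the first 2 and TGACTCA in Mmp13. The Timp2 window held none. Of the 38 genes matched by symbol in the RefSeq promoter table, 8 (21.1%) held the motif in the 250 bases, beside 6.75% of all 32851 promoters. These were 7 of the 9 cluster genes (Mmp3, Mmp7, Mmp10, Mmp12, Mmp13, Mmp1b and Mmp20) and 1 of 29 others (Plaur). Only 22 of the 38 matched genes had enough reads to be tested, and 5 of those 22 held the motif. The GC box motif was present in 60.5% of the matched genes and 32.7% of all promoters. The core of the hypoxia response element, ACGTG on either strand, was present in 18.4% and 16.6%. In these shares a matched gene counted if any of its promoters held the motif, while the share of all promoters counted each promoter. Mmp7 and Mmp12 held the AP-1 motif in only some of their promoters. Whether the motif had a part in the counts of these genes was not tested. A match in letters is not a bound site.

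Among the other metalloproteinases, the widest spread lay within the groups. Mmp9, the gelatinase of macrophages and neutrophils, had 81.4 and 37.4 CPM with dinutuximab and 22.8 and 56.7 CPM with added sEVs. The tumours alternated, and the groups overlapped (log2 fold change -0.58 ± 0.43 SE, edgeR adjusted p = 0.909). The value depended on the tumours included: without sEV 4 it was -1.38, without dinutuximab 3 it was 0.09, and without sEV 3 it was -0.08. Mmp9 was called with no filter on low counts (edgeR adjusted p = 0.0364), where 1.19% of all genes were called. In that fit the Mmp9 SE was 0.16, beside 0.43 with the filter, so the spread between its tumours weighed less there. The 8 neutrophil markers summed to 3.08 and 5.77 CPM with dinutuximab and 3.74 and 5.89 CPM with added sEVs, most of it Csf3r, which had 2.67 to 5.36 CPM. Ly6g and Elane were at 0 counts in all 4 tumours, and S100a8 had 1 and 5 counts against 13 and 11. The 8 macrophage markers summed to 1479 and 1535 CPM with dinutuximab and 1725 and 1777 CPM with added sEVs. The part of these cells in the Mmp9 values was not tested.

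Mmp28, which encodes epilysin, a secreted metalloproteinase, had 16.4 and 28.7 CPM against 21.5 and 32.6 CPM, the 2 tumours numbered 4 being above the 2 numbered 3 (0.27 ± 0.28 SE). Mmp19, which encodes a protease of basement membrane proteins, had 12.4 and 16.2 CPM against 20.5 and 16.7 CPM. Its groups did not overlap, though dinutuximab 4 and sEV 4 were close (0.38 ± 0.20, edgeR adjusted p = 0.887). Mmp19 shares exon sequence with Tmem198b on the opposite strand, and the strand setting of the counts was not given, so its counts are uncertain. The remaining tested Mmp genes, Mmp11, Mmp15, Mmp16, Mmp23 and Mmp25, had between 0.0390 and 10.9 CPM and adjusted p from 0.908 to 0.990. Mmp16, a membrane-type enzyme, had 8.11 and 8.19 CPM with dinutuximab but 4.58 and 10.9 CPM in sEV 3 and 4, on either side of them.

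Plasminogen activation genes were among the most abundant proteases and differed little between the groups. Plat, which encodes tissue plasminogen activator, had 244 and 235 CPM with dinutuximab and 191 and 220 CPM with added sEVs. Both sEV tumours were lower (log2 fold change -0.22 ± 0.13 SE), and the difference did not pass (edgeR adjusted p = 0.908). Plau, which encodes urokinase, had 84.2 and 63.2 CPM against 87.1 and 54.1 CPM, and split the tumours by number rather than by group (-0.06 ± 0.23). Plaur, its receptor gene, had 75.4 and 81.9 CPM against 89.2 and 62.2 CPM, with both dinutuximab tumours between the 2 sEV tumours (-0.06 ± 0.18).

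Of the 10 tested Adamts genes 8 had negative log2 fold changes, with a median of -0.48, and 0 had an unadjusted p under 0.05. Adamts14 and Adamts2 encode enzymes that remove the amino-terminal propeptide of fibrillar procollagens. Adamts14 was the most abundant of the family, at 61.4 and 60.8 CPM with dinutuximab and 73.6 and 54.9 CPM with added sEVs, both sides of the dinutuximab pair (0.07 ± 0.16 SE). Adamts2 had 48 and 58 counts against 43 and 13, or 1.87, 2.37, 1.64 and 0.451 CPM. Here sEV 4 was well below the other 3 tumours (-1.03 ± 0.54, edgeR adjusted p = 0.887). Without sEV 3 the log2 fold change was -2.23, and without sEV 4 it was -0.37.

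Adamts4, an aggrecan- and versican-cutting enzyme, had 15.3 and 24.4 CPM with dinutuximab and 12.8 and 14.7 CPM with added sEVs. The groups did not overlap, but dinutuximab 3 and sEV 4 were close (log2 fold change -0.52 ± 0.23 SE, edgeR adjusted p = 0.885). Without dinutuximab 4 the value was -0.15. Exons of Adamts7 overlap those of Tbc1d2b on the opposite strand, and without the strand setting the counts of Adamts4 and Adamts7 are uncertain. Adamts10, an enzyme linked to fibrillin microfibrils, had 39.3 and 39.5 CPM against 36.2 and 41.1 CPM (-0.03 ± 0.14). The other tested members, Adamts1, Adamts5, Adamts6, Adamts7, Adamts9 and Adamts12, lay between 0.312 and 8.60 CPM, with log2 fold changes from -0.74 for Adamts5 to 0.15 for Adamts12. In Adamts1, Adamts7 and Adamts9 dinutuximab 4 was the highest of the 4 tumours.

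ADAMTS-like proteins have the matrix-binding parts of the family without the protease. Adamtsl5 had 35.5 and 45.3 CPM with dinutuximab and 60.05 and 43.9 CPM with added sEVs. The high value was that of sEV 3 alone, and the groups overlapped (log2 fold change 0.36 ± 0.19 SE, edgeR adjusted p = 0.887). Adamtsl4 had 13.0 and 20.4 CPM against 16.9 and 20.5 CPM (0.17 ± 0.23). Adamtsl1, Adamtsl2 and Adamtsl3 had at most 6 counts in a library.

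The lysyl oxidases held the largest fold change of the 38 genes and opposite signs within the family. Lox, the founding member, had 43 and 31 counts in dinutuximab 3 and 4 and 7 and 6 counts in sEV 3 and 4, or 1.68, 1.27, 0.267 and 0.208 CPM. The exact Poisson intervals (95%) of the counts were 31.1 to 57.9 and 21.1 to 44.0 against 2.81 to 14.4 and 2.20 to 13.1. They cover counting error only, not the spread between tumours. The log2 fold change was -2.61 ± 0.47 (SE), or 6.12-fold lower, and it did not pass (edgeR adjusted p = 0.389, unadjusted p = 0.00041). With sEV 3 left out it was -2.81 and was called (edgeR adjusted p = 0.0288), and with sEV 4 left out it was -2.44 and was called (edgeR adjusted p = 0.0436), beside 0.93% and 2.23% of all genes called in those fits. It was also called with no filter on low counts (edgeR adjusted p = 0.00013), and it was not called without dinutuximab 3 or 4 (edgeR adjusted p of 0.854 and 0.634). DESeq2 gave no adjusted p for this low count. Lox (ENSMUSG00000024529) lies on the minus strand of chromosome 18 at 52516067 to 52529867. Its exons overlap those of the antisense gene AC161119.1, and the strand setting of the counts was not given, so its counts are uncertain.

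Loxl2 encodes an enzyme that cross-links collagen IV. It had 52 and 59 counts in dinutuximab 3 and 4 and 31 and 16 counts in sEV 3 and 4, or 2.03, 2.42, 1.18 and 0.555 CPM. Both sEV tumours were lower, sEV 4 more so (log2 fold change -1.36 ± 0.43 SE, edgeR adjusted p = 0.726, unadjusted p = 0.0127). Without sEV 3 the log2 fold change was -2.00, and without sEV 4 it was -0.90. With no filter on low counts Loxl2 was called (edgeR adjusted p = 0.0483), where 1.19% of all genes were called. Loxl1, needed for elastic fibres, had 55 and 49 counts against 43 and 29 (-0.65 ± 0.37, edgeR adjusted p = 0.901). In these 3 genes, the groups did not overlap and the sEV tumours were the lower, as in 16.5% of all genes tested.

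Loxl3 and Loxl4 had positive values. Loxl4 had 58 and 57 counts in dinutuximab 3 and 4 and 131 and 83 in sEV 3 and 4 (log2 fold change 0.77 ± 0.34 SE, edgeR adjusted p = 0.885), the groups not overlapping and sEV 3 the highest. Loxl3 had 29.0 and 27.6 CPM against 44.2 and 27.7 CPM. Only sEV 3 stood above the rest (0.34 ± 0.22, edgeR adjusted p = 0.908), and without it the log2 fold change was -0.04. Loxl3 took between 76.2% and 84.1% of the summed lysyl oxidase level per kb. Its exons overlap those of Htra2 on the opposite strand, which had between 1140 and 1424 counts, so the Loxl3 counts are uncertain.

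**Figure D5:**
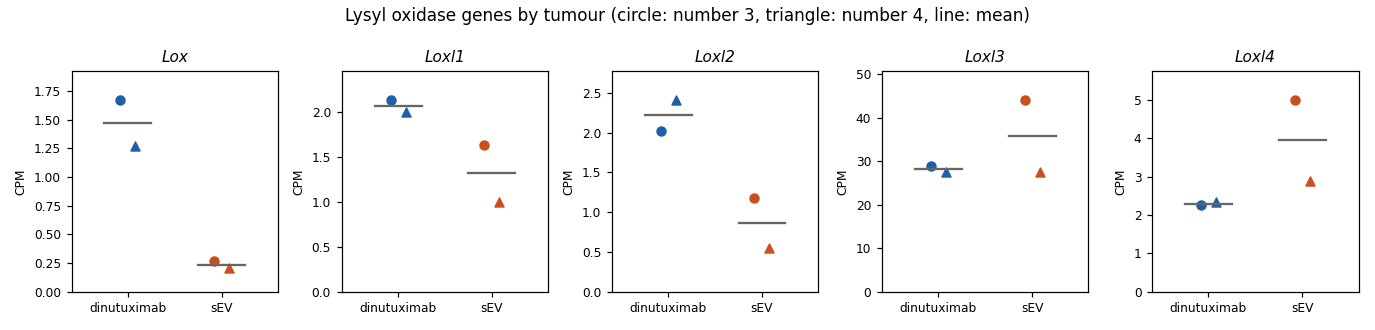
CPM of the 5 lysyl oxidase genes in each tumour, with axes from 0 (circle: tumours numbered 3, triangle: tumours numbered 4, line: mean of 2). Lox, Loxl1 and Loxl2 are lower in both sEV tumours, Loxl4 is higher in both, and Loxl3 is high only in sEV 3 at 44.2 CPM.

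Fap, which encodes a serine protease of activated fibroblasts, had 16, 8, 11 and 12 counts in dinutuximab 3 and 4 and sEV 3 and 4, with no difference between the groups detectable at this depth (log2 fold change -0.19 ± 0.53 SE). Fibroblast markers summed to 639 and 636 CPM with dinutuximab and 905 and 761 CPM with added sEVs. All 8 of these markers were tested, 4 with positive and 4 with negative values, 3 and 3 of them with an unadjusted p under 0.05. Among smooth muscle and pericyte markers, all 7 tested were lower, 5 with an unadjusted p under 0.05, and the sum was 105 and 98.9 against 59.0 and 51.7 CPM. Cnn1 was at 0 counts in all 4 tumours. Endothelial markers were lower in 7 of 8, with sums of 156 and 174 against 136 and 126 CPM. The 12 genes that respond to tissue handling summed to 677 and 643 against 539 and 544 CPM, and 11 of them had negative values, 4 of them with an unadjusted p under 0.05: Egr1 (-0.98 ± 0.17), Atf3 (-1.10 ± 0.21), Fosb (-0.71 ± 0.30) and Junb (-0.39 ± 0.15). Fos and Jun, which like Fosb and Junb encode AP-1 subunits, had -0.10 ± 0.32 and -0.19 ± 0.13. Skeletal muscle markers summed to 23.0 and 20.2 against 15.5 and 15.1 CPM, and all 7 tested had negative values, among them Myh1 (-2.64 ± 0.46). Over all genes tested, 2.47% were higher and 3.1% lower at an unadjusted p under 0.05, and 49.7% had negative values. The smooth muscle, endothelial, skeletal muscle and tissue handling sums were lower in the same 2 tumours as Lox, Loxl2, Mmp3 and Mmp10. The fibroblast and macrophage sums were higher in the same 2 as Timp2, with 4 of 8 and 7 of 8 markers positive. Their part in those values was not tested. Of the 8 neuroblastoma markers, Dbh was at 0 counts in all 4 tumours, and the sum was between 307 and 345 CPM, with Hand2 between 145 and 172 CPM. Keratinocyte markers summed to at most 19.7 CPM, most of it Sfn at 15.5 to 19.4 CPM. Krt5 and Krt14 had 15 and 22 counts in sEV 3 and 0 in dinutuximab 3, dinutuximab 4 and sEV 4. Mast cell markers summed to at most 4.55 CPM.

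Other genes of matrix turnover gave a like picture of single genes with low unadjusted p and none past the test. Over 6 lists with 64 genes, 52 were tested, 0 were called, and 5 were higher and 6 lower at an unadjusted p under 0.05, with a median log2 fold change of 0.02. In the plasminogen system (10 of 14 tested, 0 higher and 3 lower), F3, the tissue factor gene, had 16.9 and 14.6 CPM against 7.68 and 11.4 CPM (-0.72 ± 0.23 SE). Plg, the gene of plasminogen itself, was at 0 counts in all 4 tumours. F3 was lower in both sEV tumours and did not pass (edgeR adjusted p = 0.726).

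Among genes of procollagen processing, clearance and precursor activation (9 of 12 tested, 1 higher and 0 lower), Pcolce, the enhancer of procollagen C-proteinase, had 327 and 326 CPM with dinutuximab and 540 and 390 CPM with added sEVs (log2 fold change 0.51 ± 0.17 SE, edgeR adjusted p = 0.738). Bmp1, that C-proteinase, had 143 and 174 against 234 and 175 CPM (0.37 ± 0.17). Both were higher in both sEV tumours, with sEV 3 the highest, as for Timp2. For Bmp1, though, dinutuximab 4 and sEV 4 were nearly equal, at 174 and 175 CPM. Furin, which cleaves the Mmp14 precursor among others, was measured at 91.8 and 140 against 101 and 94.3 CPM, with dinutuximab 4 high as for Mmp14 itself.

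The substrates of these enzymes (9 of 12 tested, 1 higher and 1 lower) included Vcan, the versican gene, with 119 and 134 CPM with dinutuximab and 189 and 169 CPM with added sEVs (log2 fold change 0.50 ± 0.14 SE, edgeR adjusted p = 0.614). Nid1, a basement membrane protein gene, had 10.2 and 14.4 against 7.79 and 6.38 CPM (-0.79 ± 0.24, edgeR adjusted p = 0.700). Acan and Bcan, which encode other proteoglycans cut by ADAMTS enzymes, were at 0 counts in all 4 tumours. Of the collagen-modifying genes (8 of 8 tested, 2 higher and 2 lower), P4ha2, a collagen prolyl hydroxylase, had -0.56 ± 0.18 and Tgm2, a transglutaminase, 0.37 ± 0.14. The Adam sheddases (8 of 10 tested, 1 higher and 0 lower) were led by Adam10 (0.29 ± 0.12) and Adam9 (0.30 ± 0.15). No cathepsin or cystatin gene had an unadjusted p under 0.05 (8 of 8 tested), with Ctsk at 0.60 ± 0.30 and Ctss at 0.25 ± 0.17. The counts in each list are at an unadjusted p under 0.05, beside 2.47% of all genes tested higher and 3.1% lower.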

How the data were processed

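Messenger RNA was sequenced from 4 tumours, 2 per group. Raw counts for Ensembl genes were deposited by the authors, in 1 series table and in 1 table for each tumour, and the 173728 values of both sources did not differ. Per the submitters' processing notes, mm10 was the build and STAR, HTSeq and SAMtools were used. Versions, annotation and strand setting are not given in the sources used here. Of 43432 IDs, 42462 were named by GENCODE M21 (GRCm38).

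The tests used edgeR 4.0.16 under R 4.3.3: filterByExpr, TMM scaling, the quasi-likelihood F test with the group as the only term, and Benjamini-Hochberg adjustment at 0.05 over 13823 genes. The SE is the log2 fold change divided by the root of F. CPM are counts per 1000000 counts of the TMM-scaled library, and levels per kb divide them by the union of a gene's exons. The procedure was tested on simulated data. Alternatives used DESeq2 1.42.0, limma 3.58.1 (voom), other scalings and filters, a robust fit, a replicate block, a threshold of 0.1 and leaving out each library. Each group is described in the series design as having 2 biological replicates.

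Genes given by tumour had a mean of at least 10 CPM, an unadjusted p under 0.05 or a log2 fold change of at least 1 in size; in each pathway list the 2 of lowest p were named. Some items are not reported here. Further genes were named after their values were seen. The members and lists were chosen with earlier results of these data known. Promoter sequences are from RefSeq (GRCm38.p6), which matched 38 of 60 members.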

Additional observations from a re-analysis of the deposited data

How the results depend on the processing

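Of 38 tested genes, 15 kept the sign of their log2 fold change under every alternative that tested them, among them Lox, Loxl2, Mmp3, Mmp10 and Timp2 (the filter of 1 CPM in 2 libraries removed Mmp10, Adamts5, Fap and Mmp25). DESeq2 called 14 genes of the whole table higher and 31 lower. No low-count filter gave 107 and 155, or 1.19% of all genes in that fit. Among them were 4 lower members (Lox, Loxl2, Mmp10, Mmp9) and 1 higher and 1 lower pathway gene. In that fit the Mmp9 SE fell to 0.16, from 0.43 with the filter. Lox and Mmp10 had an SE of 0.51 each without the filter, beside 0.47 and 0.49 with it. Their lower adjusted p thus came without a smaller SE. The labels do not say that tumours of the same number are paired, and deviations of same-numbered tumours correlated at 0.066. With a replicate block 21 genes were higher and 46 lower, including 1 member, Lox, at -2.61 (edgeR adjusted p = 0.0436; 0.485% of all genes were called). Leaving out 1 library gave 0 to 160 genes higher and 0 to 156 lower, 0 to 2 members lower, 0 to 3 pathway genes higher and 0 to 1 lower, and a member median from -0.25 to -0.0104. In the fits without sEV 3 or 4, all genes shared 1 variance trend. Under scaling by total count Timp3 was at 0.0351 and Adamts10 at 0.0108, and Timp3 was at 0.0207 with limma-voom and 0.0066 with the block. With 1 library left out, signs turned in these ranges: Adamts1 -1.05 to 0.0049, Adamts6 -0.70 to 0.28, Adamts7 -1.07 to 0.72, Adamts9 -1.08 to 0.0066, Adamts10 -0.12 to 0.0541, Adamts12 -0.34 to 0.87, Adamts14 -0.16 to 0.27, Adamtsl4 -0.13 to 0.53, Fap -0.57 to 0.35, Loxl3 -0.0435 to 0.64, Mmp2 -0.45 to 0.0243, Mmp9 -1.38 to 0.0887, Mmp11 -0.0558 to 0.21, Mmp12 -0.78 to 0.0056, Mmp14 -0.39 to 0.0234, Mmp16 -0.83 to 0.41, Mmp23 -1.12 to 0.0480, Mmp25 -0.44 to 3.31, Mmp28 -0.0812 to 0.73, Plau -0.46 to 0.24, Plaur -0.35 to 0.18, Timp1 -0.29 to 0.16 and Timp3 -0.29 to 0.36. The cause of these differences was not tested. The same 10 genes were highest per kb with the longest transcript as length. Depth limits Lox, Mmp10, Fap, Mmp25, Adamts5 and Mmp23, which had under 50 counts in every library.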
